A study of Rattus norvegicus with 4 samples.

Results

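A total of 5459 regions of the rat genome were called open in embryonic but not in postnatal retinal ganglion cells (RGCs) and lay within 5 kb of chromatin that was open at both ages. They were selected from the ATAC-seq peak lists by a fixed set of steps. Peaks on the numbered chromosomes, called open chromatin regions (OCRs), were merged across the 4 libraries where they overlapped by at least 1 bp, which gave 224715 merged regions. Of these, 17102 (7.61%) were E21-only, meaning called in both E21 libraries and in neither P11 library. Of the E21-only regions, 906 were set aside because they sat in chains of at least 3 E21-only regions with gaps of at most 12.5 kb. Of the 16196 that remained, 5459 had a region called in all 4 libraries, a constant region, at an edge-to-edge distance of at most 5 kb. These 5459 are the members. Another 10737 unchained E21-only regions lay farther away and served as the comparison within the same stage.

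Cells were immunopanned from the retinas of Sprague Dawley rats at embryonic day 21 (E21) or postnatal day 11 (P11), by removal of macrophages and then capture on an antibody against Thy1. The labels name no altered allele and no treatment for either stage. From each preparation 300000 cells were frozen in medium with DMSO before ATAC-seq, and each stage had 2 libraries from independent litters. The stages were chosen by the study because RGCs grow axons readily at the embryonic age and much less so after birth.

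RGCs are the output neurons of the retina, and their axons form the optic nerve. In ATAC-seq a transposase cuts and tags DNA that is not tightly packed around nucleosomes, so that promoters, enhancers and insulators appear as peaks of fragments. Promoters of widely used genes tend to be open in many cell types and stages, whereas enhancers open and close with cell identity and maturation. A gene is often served by several such elements that lie near each other, so an element that is open at a single stage can sit beside open chromatin that persists. The peak lists carry no gene names and no annotation of their build was used here, so no member was assigned to a gene, promoter, exon or intron, and the cell type was not checked against its markers.

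The lists held 125917 and 154394 OCRs for E21 and 154772 and 166702 for P11. The genome-wide background pileup, which is proportional to depth, was 4.80 and 5.03 fragments at E21 and 4.30 and 4.17 at P11. The shallower P11 libraries thus had the longer lists. E21 replicate 1 stood apart with the shortest list. The 5459 members became 11672 without it and 8432 without P11 replicate 2, since a single library then stood for the stage.

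To determine how common this arrangement was, the distance to the nearest constant region was taken for every region that was not itself constant. Of 143618 such regions, 55844 (38.9%) lay within 5 kb of a constant region. Among unchained E21-only regions the share was 33.7% (95% Wilson interval 33.0 to 34.4%), and among unchained P11-only regions it was 40.5% (39.9 to 41.1%), or 9633 of 23795. Chained regions included, the E21-only pattern had 33.7% within 5 kb. The other 13 patterns of presence and absence over the 4 libraries ranged from 35.2% for regions called in E21 replicate 2 alone to 44.5% for regions called in E21 replicate 1 and P11 replicate 2. E21-only regions thus had the lowest share of regions beside constant open chromatin. Intervals on these shares cover counting error only and do not include the difference between litters. The share was 39.2% without E21 replicate 1 and 38.4% without P11 replicate 1. Presence or absence at a stage then rested on a single library and the constant regions were chosen anew, so these shares are not set against the 38.9%.

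In bins of 500 bp, members were most frequent in the bin next to the constant region and thinned out with distance, although few lay within 100 bp. The distance ran from 5 to 5000 bp with a median of 2105 bp (quartiles 927 and 3418.5 bp). Only 30 members lay within 100 bp, 762 lay at 101 to 500 bp and 666 at 501 to 1000 bp. P11-only regions beside constant chromatin lay closer, with a median of 1897 bp, 79 of 9633 within 100 bp and 1500 at 101 to 500 bp. Members lay on the lower-coordinate side and the higher-coordinate side of a constant region about equally often, with the constant region at the lower side in 2718 cases and at the higher side in 2741. A constant region lay within 5 kb on both sides of 709 members (13.0%), and this was 13.1% for P11-only regions. The 5459 members shared 5284 nearest constant regions, their neighbours. Of these, 5109 had 1 member and 175 had 2. The rule had left out chains of at least 3 E21-only regions, so more than 2 members at the same neighbour were hardly possible. Within that limit, most neighbours had 1 member, which is a description. Another unchained E21-only region lay within 12.5 kb of 1017 members (18.6%) and of 2035 far regions (19.0%), which is close to the same share. The chain rule limited both shares.

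The limit of 5 kb was not a gap in the distances. The last members inside it were chr7:120539614-120539954 and chr13:108398485-108398764, both at 4999 bp, and chr8:47230549-47230786 at 5000 bp. Fold enrichment in E21 replicates 1 and 2 was 6.79 and 7.46 for the first of these, 4.48 and 4.63 for the second, and 6.89 and 5.14 for the third. The nearest regions outside were at 5001, 5002 and 5003 bp, with folds of 3.38 and 3.81, of 4.14 and 5.97, and of 3.20 and 3.16. All positions are on Rnor_6.0 (rn6), the build in the submitters' processing notes.

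The background that a member had to exceed changed sharply with distance. Each OCR was called against a local background, the number of fragments expected at its summit from its surroundings, which cannot fall below the genome-wide level of the library. In the bin from 3500 to 3999 bp, 71.1% of E21-only regions in replicate 1 and 80.6% in replicate 2 had a local background above that level. In the bin from 4500 to 4999 bp the shares were 34.3% and 44.1%, and from 5000 to 5499 bp they were 26.3% and 29.6%. The number of E21-only regions per bin of 500 bp fell from 791 in the bin next to constant chromatin to 408 at 3500 to 3999 bp, then was 426, 458 and 415 in the following 3 bins. The halt in the decline and the drop in local background thus fell at the same distance, and P11-only regions showed a similar halt, with 2.94% of them at 3500 to 3999 bp and 3.41% at 4500 to 4999 bp. The part of the local background in the distance distribution was not tested.

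**Figure D1:**
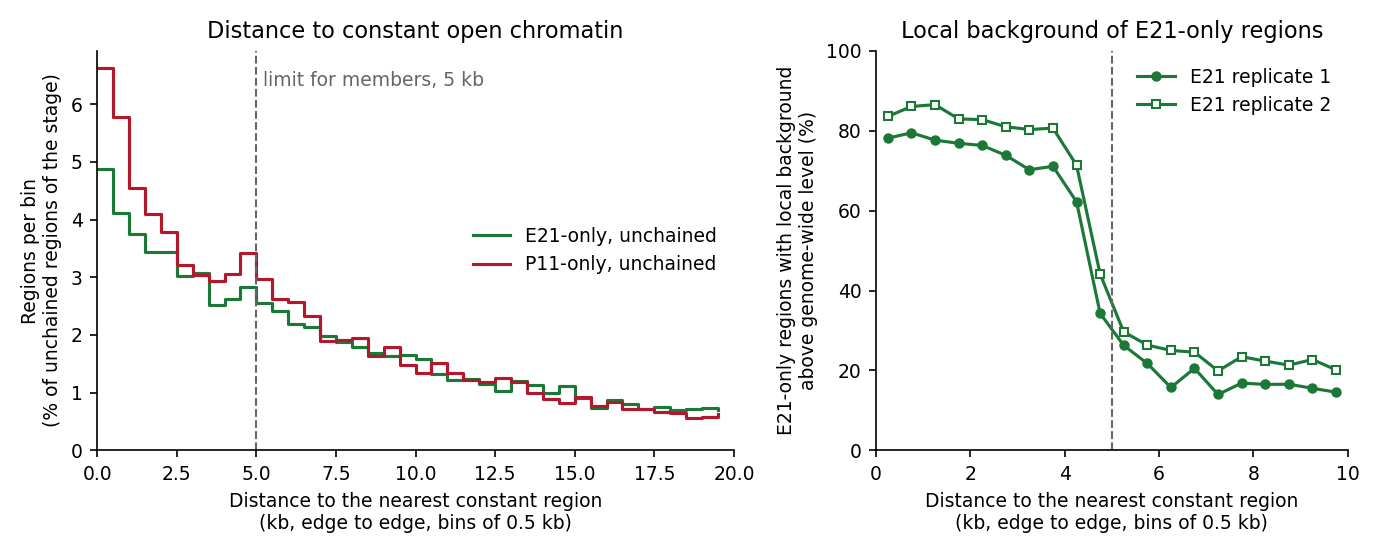
Left, unchained E21-only (green) and P11-only (red) regions per 0.5 kb of edge-to-edge distance to the nearest constant region, as a percentage of the unchained regions of the stage, with the limit for members at 5 kb dashed. Right, percentage of unchained E21-only regions whose local background exceeded the genome-wide level of the library, by distance. Counts per 0.5 kb were highest in the first bin, and the local background dropped just before the limit in both libraries.

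The strength of the members follows from the lists that selected them and is given as a description, with no test. The OCRs of a library were ordered by −log10 q and given percentiles, with 100 for the strongest, and the strongest OCR of a merged region set its rank. The median member ranked at 30.4 in E21 replicate 1 and 37.1 in replicate 2 (mean 33.8 ± 4.76, SD, n = 2). Constant regions had a median rank of 68.4 ± 4.97 at E21. Members were thus mostly OCRs of the lower part of the list, with 672 of them at or above rank 50 in both libraries and 31 (0.568%) at or above rank 75. A −log10 q of at least 5 in both libraries was reached by 4528 members (82.9%), so that most were well inside the limit of q = 0.01 that the lists imply.

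Fold enrichment, the summit pileup over the local background, differed between the members and far E21-only regions, while median rank hardly did. The rule split these regions by distance to a constant region, and a call over a higher local background needs more fragments. Their fold, pileup and background are thus not independent of the rule and the calling, and are descriptions. The median member had a fold of 4.12 and 4.18 in the E21 libraries, and the median far region 4.65 and 4.97, so the members were lower in both libraries (4.15 ± 0.04 against 4.81 ± 0.23, SD, n = 2). Summit pileup went the other way, with medians of 31 and 36 fragments in members and 26 and 30 in far regions. Median ranks were nearly equal, at 33.8 ± 4.76 and 34.2 ± 5.41. The members combined more fragments at the summit with a higher local background, at medians of 5.91 and 7.05 fragments against 4.80 and 5.03 in far regions. The local background was above the genome-wide level in 71.4% and 79.0% of members and in 11.03% and 14.7% of far regions. P11-only regions differed by distance in the same way, with folds of 3.85 ± 0.11 beside constant chromatin and 4.49 ± 0.22 far from it.

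**Figure D2:**
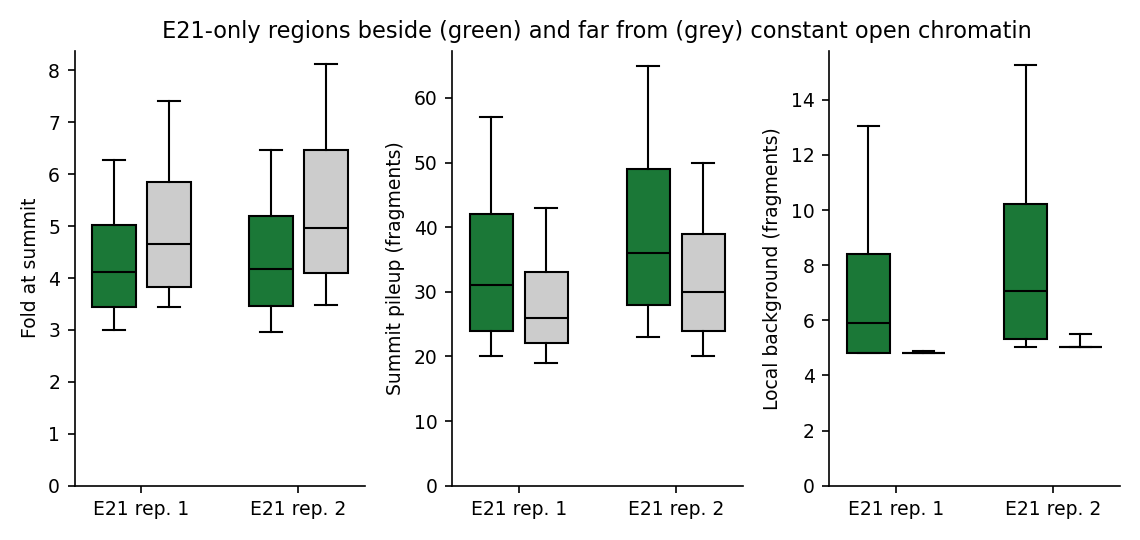
Fold at the summit, summit pileup and local background (fragments) of the 5459 members (green) and the 10737 unchained E21-only regions over 5 kb from constant chromatin (grey) in each E21 library. Boxes show quartiles and medians, and whiskers the 10th and 90th percentiles. Members had the lower fold, the higher pileup and the higher local background in both libraries.

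Within the members the same values changed with distance. Members at 0 to 500 bp had a median local background of 6.58 and 7.93 fragments and a median fold of 3.79 and 3.84 in the E21 libraries. Members at 3001 to 5000 bp had a background of 5.22 and 6.11 fragments and a fold of 4.32 and 4.50. The fold of members was therefore lowest beside the edge of the constant region, and the summit pileup moved the other way, from 32 and 37 fragments in the nearest bin to 29 and 34 in the farthest.

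Members were narrow. The merged region had a median width of 329 bp (10th to 90th percentile 215 to 554 bp), and the 10737 far regions had one of 357 bp. Within single libraries the OCRs of a member covered a median of 252 bp in E21 replicate 1 and 291 bp in replicate 2. Constant regions had a median width of 709 bp. The widest member reached 2273 bp.

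The rule required overlapping calls of narrow OCRs in both E21 libraries, which by itself keeps the summits of a member close, so its position in the libraries is a description. Summits of the E21 libraries lay a median of 26 bp apart in members, against 20 bp in constant regions, and 85.5% of members had both summits within 100 bp. OCRs of the E21 libraries overlapped by at least 50% of each in 4795 members (87.8%). Spearman's rho between the ranks in the E21 libraries was 0.553 over members and 0.906 over constant regions. These correlations are across regions of the same libraries, which are not independent replicates, and the members cover a narrower range of ranks. For P11-only regions beside constant chromatin the summits lay 54 bp apart and rho was 0.493.

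**Figure D3:**
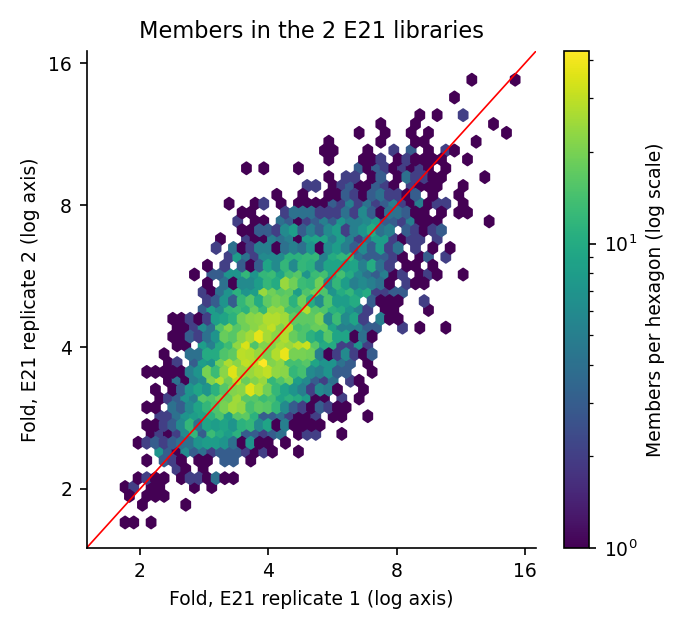
Fold of the 5459 members in E21 replicate 1 (x axis) and E21 replicate 2 (y axis), on log axes, with hexagons coloured by the number of members and the line of equal values in red. The 10th to 90th percentiles were 3.0 to 6.28 and 2.96 to 6.46, with medians of 4.12 and 4.18.

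The absence of a call at P11 was set against the depth of the P11 libraries. With the pileup and local background of a member at E21 scaled to the depth of a P11 library, between 5455 and 5458 of the 5459 members would have passed the limit of that library. This scaling starts from values that had already passed in both E21 libraries and carries no sampling noise, so it is a description and the part of depth in the missing calls was not tested. A member could also have kept part of its signal and gone uncalled. At the median member, 42.2 to 45.2% of the E21 excess of fragments over background sufficed for a call, over the 4 pairs of an E21 and a P11 library. That share was 25.6 to 27.2% at the 10th percentile of members and 65.3 to 66.8% at the 90th, so E21-only means uncalled at P11, not closed at P11.

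The member that ranked highest by the mean of both libraries was chr4:146546103-146546349, 516 bp from its neighbour. It had 626 and 840 fragments at the summit in E21 replicates 1 and 2, but its local background was 235 and 301 fragments and its fold only 2.66 and 2.78. Its neighbour ranked above 99.9 in all 4 libraries. This member thus lay beside very dense signal that was present at both ages, and its high rank went with many fragments and a low fold.

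Other members of high rank differed from it in fold. The region chr10:102810478-102811474, 997 bp wide, ranked at 89.3 and 87.7 with folds of 13.3 and 11.7 in E21 replicates 1 and 2. Its neighbour at 4799 bp ranked at 55.9 and 71.5 at E21 and at 19.3 and 18.5 at P11, so that the constant region weakened in rank alongside the loss of the member's call. The highest mean fold belonged to chr1:87556109-87556655, at 15.2 and 14.5, with summit pileups of 87 and 98 fragments over a background of 4.80 and 5.85. The neighbour of chr1:87556109-87556655, at 1780 bp, ranked at 38.3 and 75.4 at E21 and at 74.1 and 79.4 at P11, so the stages overlapped.

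Members with strong calls had neighbours that went either way. The region chr7:61077168-61077606 had folds of 10.9 and 13.2, and its neighbour at 2928 bp ranked at 8.79 and 49.3 at E21 and at 92.3 and 85.4 at P11. For chr4:121524653-121525129, with folds of 11.4 and 12.5, the neighbour at 3775 bp ranked at 56.8 and 71.7 at E21 and at 91.0 and 91.8 at P11. At these loci the call that was lost by P11 lay beside a constant region that ranked higher at P11 than at E21. By contrast the neighbours of chr18:57054096-57054789 and chr8:126500175-126500655 ranked between 90.4 and 96.6 in every library, so the constant region there was strong at both ages.

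The other 3 of the 10 members with the highest mean rank were chr13:53438443-53439044, chr9:30357035-30357456 and chr1:136353146-136353659, with folds from 8.70 to 14.8. The 5 members with the highest mean fold included 4 of those 10 and chr6:135694218-135694769, which had folds of 14.6 and 11.4. These values come from the contrast that selected the members and are descriptions.

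To ask whether the constant regions beside the members changed in degree, their ranks were compared between stages. The median neighbour ranked at 58.4 and 67.1 at E21 and at 65.5 and 67.7 at P11. E21 replicate 1 was the lowest, while E21 replicate 2 lay within the range of the P11 libraries. The stage means were 62.7 ± 6.16 at E21 and 66.6 ± 1.55 at P11 (SD, n = 2), a difference of −3.91 rank points that was smaller than the spread between the E21 litters (exact permutation test, two-sided, p = 0.667). Leaving out E21 replicate 1 gave −1.16 points and leaving out E21 replicate 2 gave −9.09. Leaving out P11 replicate 2 gave −1.59 points, and lists of equal length gave −0.10. These settings chose the members and constant regions anew, so the values are not over the same neighbours. Over the neighbours given above, E21 replicate 2 alone, at 67.1, lay above the P11 mean of 66.6. No comparison of 2 against 2 libraries can give a p below 0.333 by this test. Over all 81097 constant regions the same difference was −2.67 points, which left the neighbours at −1.24 points relative to it.

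**Figure D4:**
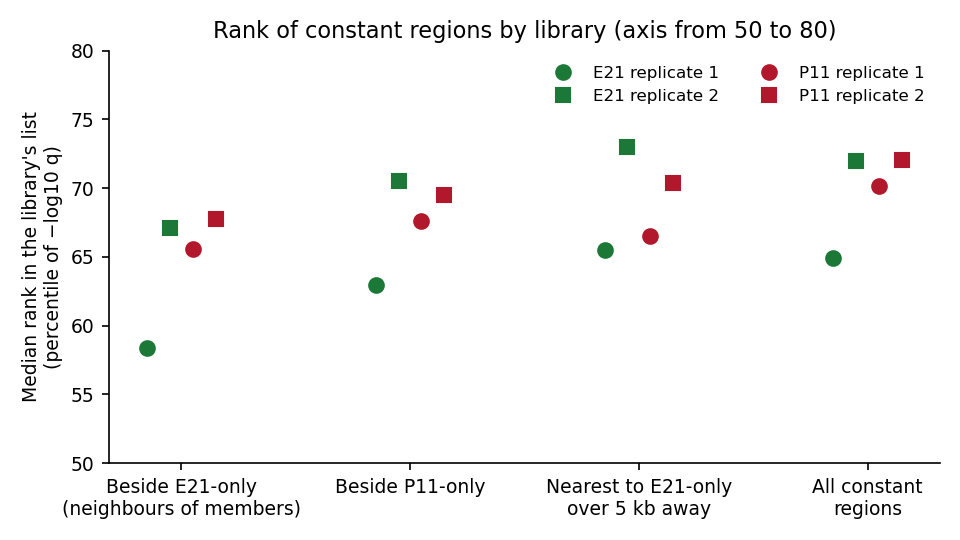
Median rank of constant regions in each library (percentile of −log10 q in the list of that library, axis from 50 to 80), for neighbours of members, neighbours of P11-only regions, constant regions nearest to far E21-only regions, and all constant regions. Green marks E21 and red P11, with circles for replicate 1 and squares for replicate 2. In every set E21 replicate 1 was the lowest, and in every library the neighbours of members were the lowest of the 4 sets.

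Neighbours of members were weaker constant regions than the rest at both ages. Only 316 of 5284 (5.98%) ranked at or above 90 in all 4 libraries, against 10.8% of all constant regions, and 474 (8.97%) ranked below 50 in all 4, against 7.34%. Neighbours of P11-only regions had 6.55% and 7.73%. The median width of neighbours was 682 bp, against 709 bp over all constant regions, and 32 neighbours (0.606%) were at least 2 kb wide, against 0.678%.

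Single neighbours that changed rank were counted next. A constant region was called rank-shifted when its ranks did not overlap between the stages and the gap between the stage means reached 25 points. By this rule 8.64% of all constant regions shifted toward E21 and 12.3% toward P11. Of the neighbours of members, 493 (9.33%) ranked higher at E21 and 737 (13.9%) higher at P11. Without E21 replicate 1, P11 replicate 1 or P11 replicate 2 the number higher at E21 was 1260, 933 or 1119. These settings chose the members anew, as 11672, 7838 or 8432 regions, and also changed the libraries ranked, so the counts are not over the same neighbours. With all libraries both shares were near the background, and neighbours of P11-only regions had 850 (9.27%) and 1128 (12.3%). Constant regions nearest to far E21-only regions had 1046 of 8871 (11.8%) higher at E21 and 923 (10.4%) higher at P11. The members' neighbours thus had a smaller share higher at E21 than the constant regions nearest to far E21-only regions, and this difference was not tested.

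**Figure D5:**
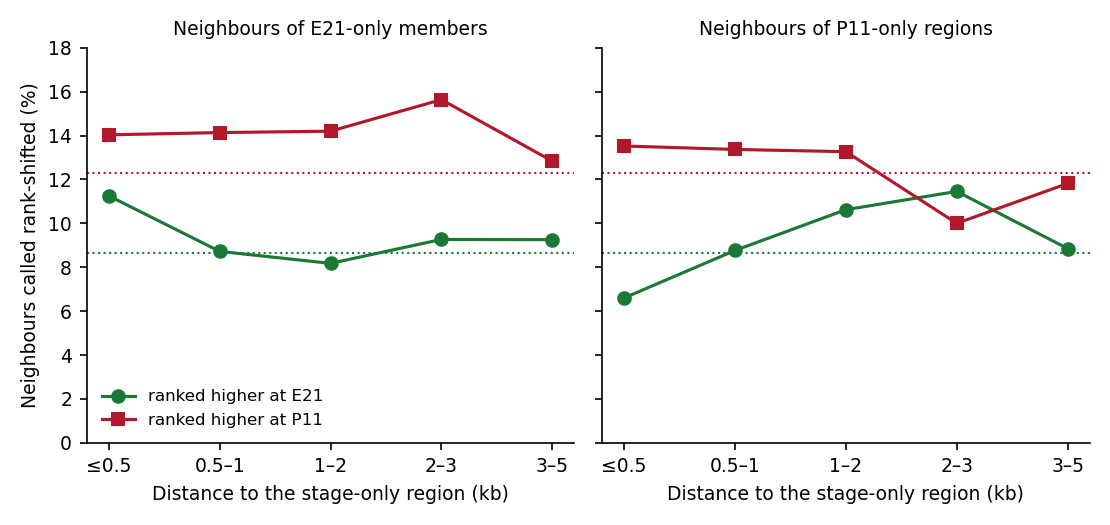
Percentage of neighbours called rank-shifted toward E21 (green circles) and toward P11 (red squares) by distance to the stage-only region, for neighbours of members (left) and of P11-only regions (right). Dotted lines mark the shares over all constant regions, 8.64% and 12.3%. Beside members the shifts toward P11 were the more frequent in all 5 bins, and both colours stayed within 4 points of their line.

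Over the bins of distance the share higher at E21 ran from 8.18 to 11.3% beside members. Beside P11-only regions it ran from 6.60 to 11.5%, the latter at 2001 to 3000 bp. At 0 to 500 bp from the member, 89 of 791 neighbours (11.3%) ranked higher at E21 and 111 (14.03%) higher at P11. At 3001 to 5000 bp the shares were 9.26% and 12.8% of 1761. The bin nearest to the members had the largest share higher at E21, and the bin nearest to P11-only regions had the smallest, at 6.60% of 1575. The share higher at P11 ran from 12.8 to 15.6% beside members, with the highest at 2001 to 3000 bp and not in the nearest bin. Beside P11-only regions it ran from 10.0 to 13.5%, with the highest at 0 to 500 bp. The counts in single bins were not tested.

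The largest rank differences toward E21 were at neighbours of members with ordinary strength. The neighbour of chr10:78245448-78245828, at 2214 bp, ranked at 92.3 and 94.3 at E21 and at 29.8 and 8.80 at P11, while that member had folds of 3.19 and 4.40. The neighbour of chr1:41475211-41475511, at 405 bp, ranked at 85.7 and 80.2 at E21 and at 9.09 and 18.5 at P11. At these loci the constant region ranked higher at the stage at which the member was called. The other 3 of the 5 largest, beside chr20:4805372-4805596, chr2:125905531-125905800 and chr1:97019270-97019718, differed by 64.2 to 69.6 points.

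The largest differences toward P11 were wider still. The neighbour of chr16:44409355-44409844, at 4629 bp, ranked at 4.33 and 2.03 at E21 and at 92.5 and 85.0 at P11, and the member had folds of 4.14 and 4.97. The neighbour of chr17:46854382-46854747, at 3238 bp, ranked at 0.932 and 11.1 at E21 and at 84.9 and 88.3 at P11. At both loci the E21-only region was called in the libraries in which its neighbour ranked low. The other 3, beside chr16:3347312-3347803, chr7:34454779-34455121 and chr1:124919567-124920239, differed by −78.4 to −77.5 points.

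The direction of the neighbours' difference depended on the measure. On the log2 scale of the fold, the median neighbour was 0.22 higher at E21 (2.65 and 2.80 at E21 against 2.45 and 2.56 at P11), and all constant regions were 0.32 higher, which put the neighbours at −0.10 relative to all constant regions. On the log2 scale of summit pileup over the genome-wide background of the library, neighbours were 0.22 higher at E21 and all constant regions 0.24 higher, which put the neighbours at −0.02 relative to them. In rank and fold the neighbours thus lagged behind other constant regions at E21, and in pileup they hardly did.

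Local background around the neighbours was set against that around all constant regions. Around neighbours of members its median was 6.22 and 7.54 fragments at E21 and 5.67 in both P11 libraries. Around neighbours of P11-only regions it was 5.69 and 6.79 fragments at E21 and 6.53 and 6.54 at P11, so the stages overlapped. Relative to all constant regions, at 5.91 and 7.04 against 5.78 and 5.76, it was higher at E21 beside members and higher at P11 beside P11-only regions. Both kinds of neighbour were chosen for a region within 5 kb that was called at that same stage only. Local background is taken from the surroundings, so this contrast is not independent of the rule and is a description. Around the constant regions nearest to far E21-only regions it was below that of all constant regions in every library. There it was 4.98 and 5.84 fragments at E21 against 4.38 and 4.43 at P11, with the E21-only region over 5 kb away. The local background enters the fold and the rank but not the pileup, and its part in the neighbours' difference was not tested.

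To compare the stages directly, the neighbours of members were set against the neighbours of P11-only regions within each library. The difference in median rank was −4.58 and −3.43 points at E21 and −2.03 and −1.79 points at P11. Neighbours of members ranked lower in all 4 libraries, and the stages did not overlap. Rank depends on local background, and both kinds of neighbour were chosen by a call at a single stage within 5 kb. The difference between stages in rank is therefore not independent of the rule. With a distance of at most 10 kb, for members and P11-only regions alike, the stage difference turned to 0.298 points. At 5 kb the stage means differed by −2.09 points (−4.00 ± 0.817 against −1.91 ± 0.173, SD, n = 2; two-sided exact permutation test, p = 0.333, which is the lowest possible). The difference between stages was −0.72 points when E21 replicate 1 was left out. It was −0.61 points when P11 replicate 1 was left out and −0.81 when P11 replicate 2 was. Each of these settings chose both kinds of neighbour anew, so the change is not that of dropping a library alone. Adjusted by Benjamini-Hochberg over the 3 tests of neighbours, every p was 1. In summit pileup over the genome-wide background the corresponding difference was 0.03 on the log2 scale, in the opposite direction, and in log2 fold it was −0.19.

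The extent of the neighbours did not differ between stages beyond the spread of litters. OCRs covered a median of 455 and 543 bp of a neighbour at E21 and 516 and 535 bp at P11, with means of 499.0 ± 62.2 and 525.5 ± 13.4 bp (SD, n = 2; exact permutation test, two-sided, p = 1). Without E21 replicate 1, and with the neighbours chosen anew, the difference was 1.5 bp in place of −26.5 bp. To ask whether the neighbour reached farther toward the member, the edge facing it and the edge facing away were compared with the mean edge over libraries. The median facing edge stood −15.5 and 10.5 bp from that mean at E21 and 1.25 and 7.25 bp at P11, with positive values toward the member. The stages differed by −6.75 bp at the facing edge and −5.5 bp at the other edge (exact permutation p = 1 each), so no extension toward the member was detectable with 2 libraries per stage.

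Members were usually the weaker element of the pair. The fold of a member exceeded that of its neighbour in 1253 pairs (23.0%) in E21 replicate 1 and in 1008 (18.5%) in replicate 2, and in 661 pairs (12.1%) in both. The median ratio of member to neighbour was 0.675 and 0.618. This ratio is between fold values of the same library and the same surroundings, and the member's own value was limited from below by its call. The rule required calls in all 4 libraries for the neighbour and none at P11 for the member. The order within the pair is thus not independent of the rule and is a description.

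P11-only regions were found at the same loci more often than beside far E21-only regions. A P11-only region lay within 5 kb of 1018 members (18.6%), of 1146 far E21-only regions (10.7%) and of 12920 constant regions (15.9%). The median distance to the nearest P11-only region was 22092 bp for members, 39737 bp for far E21-only regions and 22571 bp for constant regions. Members were closer to constant regions than to far regions in this respect, and the rule had placed them beside constant regions. Of the 5284 neighbours of members, 691 were also the nearest constant region to an unchained P11-only region within 5 kb, which is 13.1% of the members' neighbours and 7.53% of the 9172 neighbours of P11-only regions. Over all constant regions 11.3% were such a neighbour of a P11-only region, so the overlap was slightly above that background. At those 691 constant regions an element of each stage lay within 5 kb of chromatin called at both. The sides on which the elements lay were not compared.

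Members were found on all 20 numbered chromosomes. As a share of the merged regions of a chromosome they were lowest on chromosome 17, with 180 of 9216 (1.95%, 95% Wilson interval 1.69 to 2.26%), and highest on chromosome 10, with 358 of 11274 (3.18%, 2.87 to 3.52%). As a share of the unchained E21-only regions the order was different, from 30.3% (28.1 to 32.7%) on chromosome 2 to 39.9% (34.8 to 45.3%) on chromosome 20, with 39.8% (35.4 to 44.4%) on chromosome 17. Chromosome 17 thus had few E21-only regions, and a comparatively large part of them lay beside constant chromatin. The intervals of most other chromosomes overlapped, and the number of constant regions per unchained E21-only region ranged from 4.08 on chromosome 10 to 7.18 on chromosome 17.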

How the data were processed

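ATAC-seq was done on 4 libraries of immunopanned rat RGCs, 2 per stage, grouped by the stage and replicate number in their labels. Mapping and calling of OCRs were done by the authors in AIAP, an ATAC-seq pipeline, for each library on its own. MACS2 and the builds Rnor_6.0 and rn6 are named in the submitters' processing notes, and versions and settings are not given in the sources used here. The deposited narrowPeak lists give, per OCR, a score, the fold (a ratio of summit pileup to local background), −log10 p-value and −log10 q-value, and the summit offset. The deposited score was not used. It equalled 10 times −log10 q without the decimals for nearly all OCRs, 99.994% in the list with most exceptions. Read totals were not used here.

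Duplicate lines were dropped and OCRs merged as described above. The fold and −log10 p of each OCR were solved for the summit pileup and local background, taking the fold as pileup plus 1 over background plus 1 and p as a Poisson tail. The pileup was whole within 0.02 fragments for 100% of OCRs in each library. The lowest local background found in a list was taken as the genome-wide level. Calculations used Python 3.11.15, numpy 2.4.6, pandas 2.3.3 and scipy 1.17.1, and the steps were tested on simulated lists with known members. Stages were compared over the libraries by exact permutation, two-sided, and the 3 tests of neighbours were adjusted together. A region was named if it was among the 10 members with the highest mean E21 rank, the 5 with the highest mean fold, or the 5 with the largest neighbour rank difference in either direction. The members, lists and rules were chosen with earlier results of these data known. Promoter shares and motif counts were planned, but the annotation and sequence used here were of another build, so they were not run and no sequence is printed. Alternatives were other limits, overlaps, distances, chain gaps, ranks and measures, each library left out, and a replicate block.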

Additional observations from a re-analysis of the deposited data

How the results depend on the processing

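With each library left out in turn, presence or absence rested on a single library at that stage, and the number of members ranged from 7745 to 11672, their share of unchained E21-only regions from 35.9 to 39.2%, their median rank from 24.7 to 36.2 and the neighbours ranked higher at E21 from 602 to 1260. The neighbours' covered length differed by −70.5 to 1.5 bp, and it turned positive only without E21 replicate 1. At most 2 kb and at most 10 kb of distance gave 2624 and 8686 members, shares of 16.2 and 53.6%, and 242 and 817 neighbours ranked higher at E21. A minimum shift of 10 or 40 points gave 1034 or 161 such neighbours.

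The neighbours' stage difference turned positive in log2 fold, at 0.218, and in log2 summit pileup over background, at 0.218, the latter chosen after seeing the data. All constant regions turned with it. Its difference between neighbours of members and of P11-only regions reversed to 0.298 points within 10 kb and to 0.0319 in log2 pileup. The cause of these reversals was not tested.

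The replicate numbers did not pair the litters (correlation of same-numbered deviations 0.0272 over constant regions). With the replicate block there were 12869 members, at a share of 41.4% and a median rank of 26.9, and the neighbours' differences were as without it (exact permutation p = 0.5 for both rank differences, the smallest it allows, and 1 for covered length). The neighbours' rank difference kept its sign under the other 17 alternatives, from −9.09 to −0.103 points, the latter with lists of equal length. The leave-out settings among them chose the neighbours anew. With 2 libraries per stage the exact permutation test could not pass 0.05, and the lists hold no reads for uncalled regions, so partial loss of signal at P11 cannot be measured. Promoter and motif alternatives were not run.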
